A study of Mus musculus with 10 samples.

Results

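MiR-34a-5p is the mature strand most often used from the mouse gene Mir34a, and it was followed here as 1 of the 721 miRNAs listed in small extracellular vesicles from C57BL/6J mice. It was found by its name in both deposited tables and was chosen by its read counts, known to be lower in exercised mice in both vesicle sources, so the Exe and Sed values below are a description and carry no test. Small RNA was sequenced from vesicles of brown adipose tissue (BAT) or plasma in 10 libraries: Exe BAT (3), Sed BAT (3), Exe plasma (2) and Sed plasma (2). Exe is read as exercised and Sed as sedentary, since the series compares vesicles before and after exercise; the labels nevertheless list sessions of 90 min, 2 a day over 4 weeks, for the Sed samples too. The plasma libraries carry wt in their labels, read as wild type, and the BAT labels give no genotype. No agent, age or sex is given for any group, and nothing says whether a library is 1 animal or a pool.

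MicroRNAs guide Argonaute proteins to messenger RNAs, mainly through the seed, bases 2 to 8 of the mature strand, and lower the output of the messages they pair with. Mir34a is a direct target gene of p53. In mouse fat miR-34a increases in obesity and is known to restrain brown and beige fat formation, among others by lowering the FGF21 receptor pair Fgfr1 and Klb and the deacetylase Sirt1. Vesicles from mouse adipocytes can carry miR-34a to macrophages, where Klf4 is a known target. Vesicle levels are not cell levels, and in such samples fewer vesicles carrying a miRNA and fewer copies per vesicle cannot be told apart.

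The sequences show which listed miRNAs share the seed and could act on the same messages. They are RefSeq mature strands with coordinates in GRCm38.p6, printed 5′ to 3′ with the seed in capitals.
miR-34a-5p (chr4:150068473-150068494, plus strand): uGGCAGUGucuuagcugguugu
miR-34b-5p (chr9:51103610-51103632, minus strand): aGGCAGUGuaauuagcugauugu
miR-449a-5p (chr13:113037549-113037570, plus strand): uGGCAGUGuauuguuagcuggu
miR-34a-3p (chr4:150068517-150068537, plus strand): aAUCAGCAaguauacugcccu
miR-34b-3p (chr9:51103574-51103595, minus strand): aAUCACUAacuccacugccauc
miR-34c-3p (chr9:51103044-51103065, minus strand): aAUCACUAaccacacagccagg
The first 3 share the seed GGCAGUG, and they were the only ones with it among the 605 listed miRNAs that had a RefSeq sequence. Counted from the 5′ end, miR-449a-5p matched miR-34a-5p at 15 of 22 bases and miR-34b-5p at 11 of 22. The 3′ strands carry other seeds, and miR-34b-3p and miR-34c-3p share theirs.

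Both strands of Mir34a come from 1 hairpin of 102 bases on chr4:150068454-150068555 (plus strand). It is shown with miR-34a-5p (bases 20 to 41) and miR-34a-3p (bases 64 to 84) in capitals, because the tables counted almost only the first of them.
Mir34a hairpin: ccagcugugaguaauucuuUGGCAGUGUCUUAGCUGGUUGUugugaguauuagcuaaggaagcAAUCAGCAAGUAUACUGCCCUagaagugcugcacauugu
In GENCODE M21 (GRCm38) the hairpin lies in no protein-coding gene. It overlaps the unconfirmed transcript Gm37795 by 17 bases, and the nearest protein-coding gene, Gpr157, starts 18810 bases downstream. Mir34b and Mir34c are 452 bases apart on chromosome 9, inside Btg4 on its opposite strand.

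The letters CACTGCC, which pair with the seed, were looked for on the coding strand in the longest annotated 3′ UTR of 4 known targets. Fgfr1 and Klf4 held 1 match each. Of the 21005 genes with a 3′ UTR, 14.3% held at least 1. The matches are printed with the 7 letters in capitals.
Fgfr1 (chr8:25573982-25574011, plus strand): tccccttgttggacaCACTGCCtttctcct
Klf4 (chr4:55528086-55528115, minus strand): agtggatgtgacccaCACTGCCaggagaga
The 3′ UTRs of Sirt1 and Klb did not hold these letters, which says only that this spelling is not in that window. The stretch searched was 1631 bases in Sirt1 and only 310 in Klb, against 1797 in Fgfr1 and 982 in Klf4.

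BAT vesicle libraries held 104064 to 172279 miRNA reads and plasma vesicle libraries 1209116 to 1798169. Sed BAT replicate 2 stood apart: miR-378a-3p, an abundant brown fat miRNA made from an intron of the PGC-1β gene, took 3.66% of its reads, against 16.7% and 21.4% in the other Sed BAT libraries. The brown fat markers miR-193b-3p and miR-378a-3p were present in all 6 of them. MiR-451a, an erythroid miRNA, made up 11.1% and 13.1% of Exe plasma reads, against 69.8% and 52.8% of Sed plasma reads, so a share of plasma reads depends strongly on that 1 miRNA.

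In BAT vesicles miR-34a-5p was lower in every Exe library than in any Sed library. It had 672, 856 and 988 reads in Exe BAT replicates 1 to 3, against 1989, 1644 and 1259 reads in Sed BAT replicates 1 to 3. As a share of miRNA reads this was 0.576%, 0.539% and 0.574% in Exe BAT, against 1.17%, 1.58% and 1.08% in Sed BAT. The exact 95% binomial intervals of the shares reached no higher than 0.622% in Exe BAT and no lower than 1.03% in Sed BAT, counting error only. The 3 Exe libraries lay close together and the Sed libraries were spread more widely, with Sed replicate 2 highest. By rank among the miRNAs of its library, miR-34a-5p stood at 32, 37 and 33 in Exe BAT, against 19, 18 and 18 in Sed BAT.

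The size of the BAT difference was close to 2-fold on each scale. Counts per 1000000 miRNA reads after TMM scaling (CPM, which adjusts for library composition) averaged 5897 ± 337 in Exe BAT and 12210 ± 642 in Sed BAT (SD, n = 3 each). The deposited RPM, which sets the read count against a far larger library total than the miRNA reads, averaged 43.8 ± 8.18 in Exe BAT and 78.8 ± 18.1 in Sed BAT (SD, n = 3 each). The Sed mean was 2.07 times the Exe mean in CPM, 2.27 times in share and 1.80 times in RPM. The edgeR fit gave a log2 fold change of -1.05 ± 0.20 (SE), Exe over Sed, and -0.96 without Sed BAT replicate 2.

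**Figure D1:**
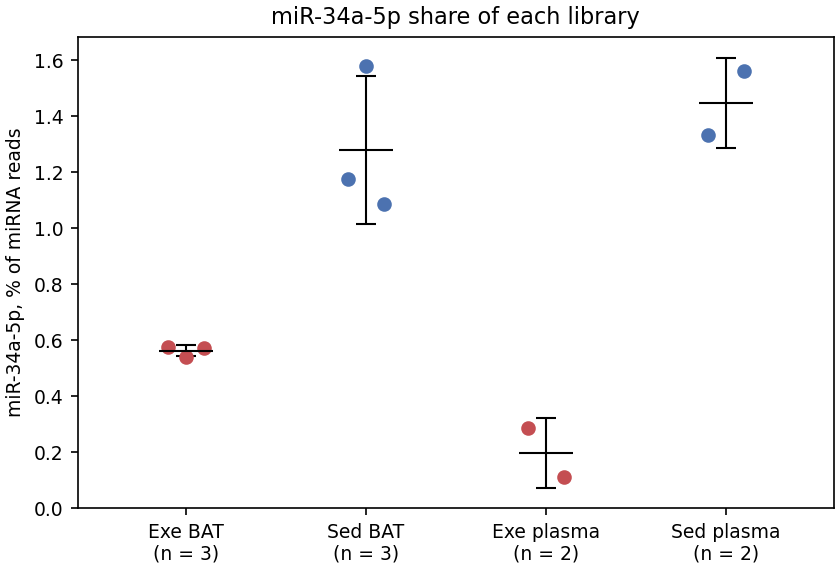
Share of miRNA reads taken by miR-34a-5p (percent, y axis) in each library of the 4 groups (x axis); points are libraries, and the wide line and bars are the mean and SD. Exe libraries lie at 0.539% to 0.576% in BAT and 0.110% to 0.286% in plasma, below all Sed libraries of the same source.

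Plasma vesicles held fewer miR-34a-5p reads in Exe than in Sed as well. Exe plasma replicates 1 and 2 had 3463 and 1936 reads, against 17882 and 28045 reads in Sed plasma replicates 1 and 2. The shares were 0.286% and 0.110% in Exe plasma, against 1.33% and 1.56% in Sed plasma. Both Exe libraries lay below both Sed libraries, and the Exe libraries differed from each other by more than their counting intervals of 0.277% to 0.296% and 0.105% to 0.115%. MiR-34a-5p ranked 42 and 53 in Exe plasma, against 7 and 9 in Sed plasma.

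The plasma difference was larger than the BAT difference in fold, and its size depended on the scale. CPM averaged 1483 ± 633 in Exe plasma and 18340 ± 3462 in Sed plasma (SD, n = 2 each), so that the Sed mean was 12.4 times the Exe mean. In share of reads it was 7.30 times. The log2 fold change was -3.63 ± 0.76 (SE), and -2.67 without Exe plasma replicate 2. With miR-451a left out of the total, miR-34a-5p took 0.322% and 0.126% of Exe plasma reads, against 4.41% and 3.30% of Sed plasma reads, again without overlap.

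A second whole number stands beside each plasma read count; how it was made is not stated, and it is never larger than the read count. MiR-34a-5p had second values of 3344 and 1891 in Exe plasma, against 12595 and 1447 in Sed plasma, so Sed plasma replicate 2 was the lowest of the 4 on this raw scale. The reads per second value were 1.04 and 1.02 in Exe plasma, against 1.42 and 19.4 in Sed plasma. Over all miRNAs that ratio was also higher in Sed, at 1.41 and 1.64 in Exe plasma, against 3.31 and 21.4 in Sed plasma. It also varied between miRNAs of the same library. For miR-449a-5p it was 5.29 in Sed plasma replicate 1 and 6.18 in Sed plasma replicate 2. As a share of the summed second values, miR-34a-5p took 0.390% and 0.175% in Exe plasma, against 3.10% and 1.72% in Sed plasma. The groups did not overlap on that scale, and the log2 fold change from the second values was -3.20 ± 0.95 (SE).

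**Figure D2:**
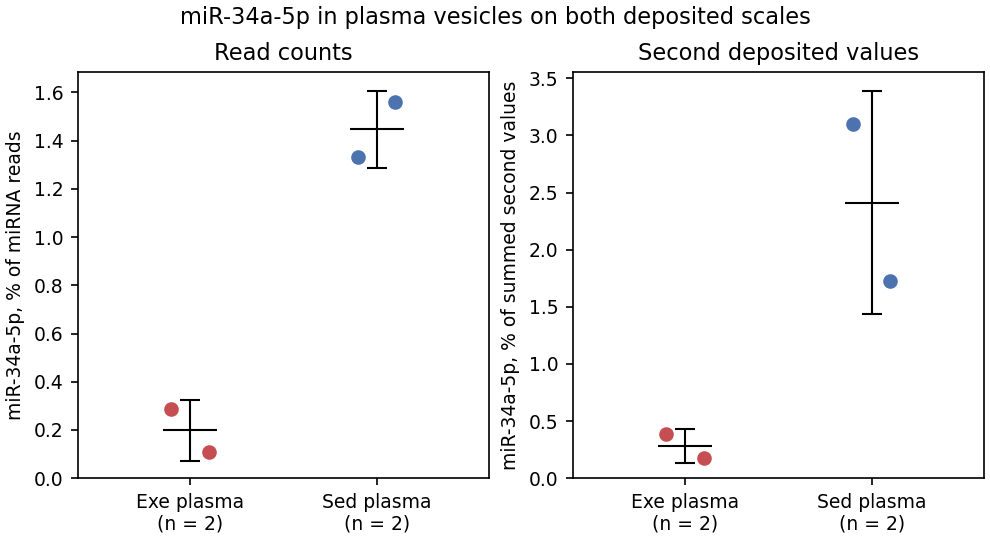
MiR-34a-5p in the 4 plasma libraries as a percent of miRNA reads (left) and as a percent of the summed second deposited values (right); points are libraries, and the wide line and bars are the mean and SD. Exe lies below Sed on both scales, and the Sed libraries are further apart in second values, at 3.10% and 1.72%.

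Other miRNAs also differed between Exe and Sed, and miR-34a-5p was not at the end of either list. In BAT 45 of 199 tested miRNAs passed the threshold, an adjusted p under 0.05 in edgeR's quasi-likelihood test (22.6%); 26 fell (13.1%) and 19 rose (9.55%). The median log2 fold change of all 199 was -0.06, and 22 had a more negative value than miR-34a-5p. Groups that do not overlap, with Exe lower, were found for 23.1% of the tested BAT miRNAs. In plasma 0 of 182 passed with edgeR (0.0%), while 60 had an unadjusted p under 0.05, DESeq2 called 57 and limma-voom 35. The plasma median was 0.32, 38 miRNAs had a more negative value than miR-34a-5p, and 30.8% had Exe libraries all below Sed libraries.

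**Figure D3:**
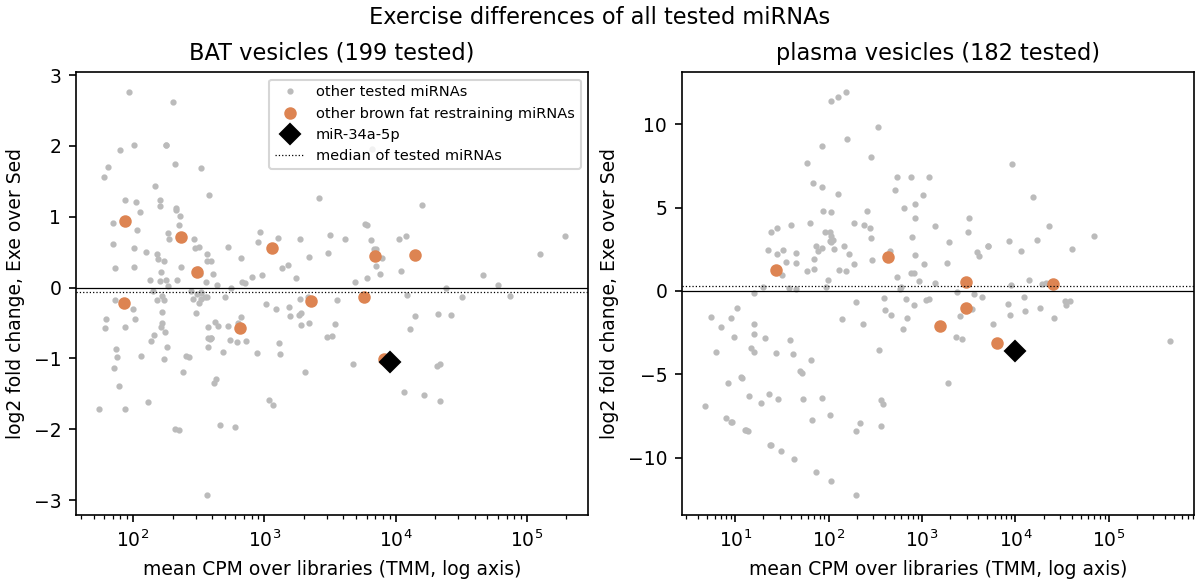
Log2 fold change, Exe over Sed (y axis), against mean CPM (x axis, log scale) for every tested miRNA in BAT (left, 199) and plasma vesicles (right, 182). The diamond is miR-34a-5p, orange points are the other miRNAs that restrain brown fat, and the dotted line is the median of tested miRNAs; miR-34a-5p lies at -1.05 in BAT and -3.63 in plasma.

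Scaling moved the median of all tested miRNAs together with miR-34a-5p. A change of scaling factors shifts all miRNAs by nearly the same amount. Values set against the median therefore stay alike between scalings by construction, which is no separate support. Set against that median, miR-34a-5p in BAT was -0.99 in the TMM fit and -0.92 to -1.01 under 9 other scalings, tools and filters, while its value as fitted ran between -0.85 and -1.19. In plasma it was -3.95 against the median in the TMM fit and -2.58 to -5.62 under 8 others, with -2.86 to -4.50 as fitted. Every one of these values was negative.

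**Figure D4:**
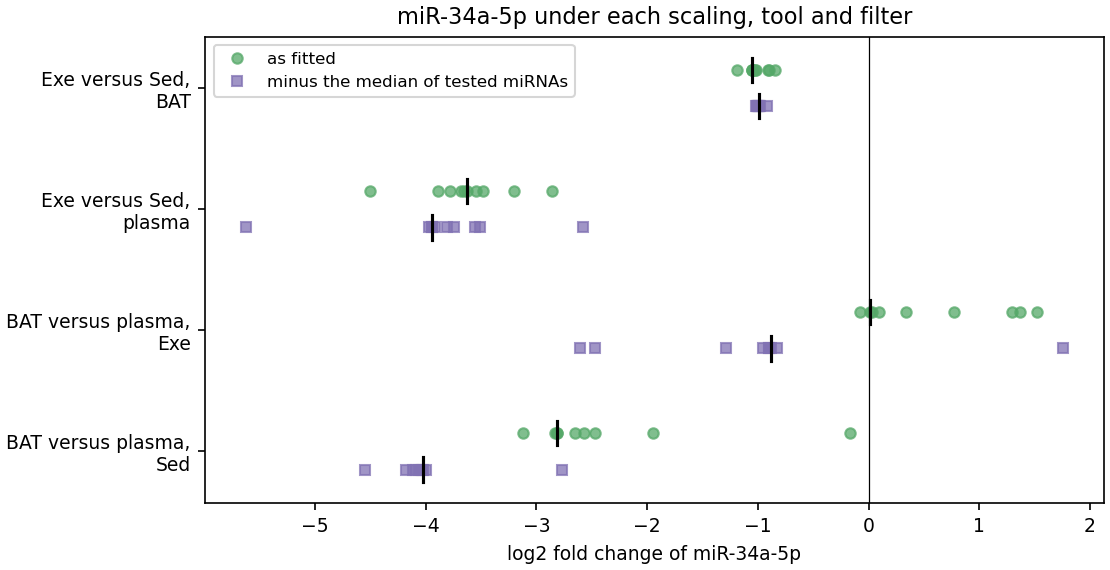
Log2 fold change of miR-34a-5p (x axis) in 4 comparisons (y axis), as fitted (circles) and minus the median of all tested miRNAs (squares), with 1 point per scaling, tool or filter and a black tick for the TMM fit. Exe over Sed is negative throughout in both sources, and BAT over plasma among Exe libraries lies on both sides of 0.

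Read ratios within a library need no scaling. They use the reads by which miR-34a-5p was chosen, so lower Exe ratios were likely beforehand and their counts are a description. Of the 6 tested miRNAs next to it in mean BAT abundance, 4 gave a ratio of miR-34a-5p reads to their own reads that was lower in every Exe BAT library than in any Sed BAT library. To miR-191-5p the ratio was 0.586 to 0.712 in Exe BAT and 1.71 to 1.97 in Sed BAT, and to miR-145a-5p 0.468 to 0.512 in Exe BAT and 1.15 to 1.30 in Sed BAT. The ratios to miR-24-3p and miR-206-3p also did not overlap. The ratios to miR-1a-3p, a muscle miRNA, and to let-7i-5p did overlap, at 0.799 to 1.31 in Exe BAT and 0.514 to 0.921 in Sed BAT for miR-1a-3p, and 0.911 to 1.28 in Exe BAT and 1.04 to 1.27 in Sed BAT for let-7i-5p.

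In plasma the ratio was lower in both Exe libraries for all 6 neighbours in abundance, again a description of reads used in the choice. The smallest log2 difference was -2.19, to miR-99a-5p, with ratios of 0.295 and 0.331 in Exe plasma against 1.35 and 1.51 in Sed plasma. The largest was -11.5, to miR-375-3p, an islet and gut endocrine miRNA, which itself had 23766 and 43260 reads in Exe plasma, against 123 and 75 in Sed plasma. The ratios to miR-22-3p, miR-146a-5p, miR-23a-3p and miR-26a-5p lay between these. A ratio shows unequal change and not which of the pair differed.

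The contrast between sources was not itself used to choose miR-34a-5p, but it rests on the same reads. Its values and p-values are therefore a description. The answer depended on the group and on the scaling. The source cannot be told apart from the deposited table or from a batch of sequencing. Among Sed libraries miR-34a-5p took 1.28% ± 0.264 of BAT reads (SD, n = 3) and 1.45% ± 0.160 of plasma reads (SD, n = 2), and these shares overlapped. TMM factors were taken over the 234 tested of the 394 shared miRNAs. On that scale miR-34a-5p averaged 6956 ± 558 CPM in Sed BAT and 48870 ± 8540 CPM in Sed plasma. The log2 fold change was -2.81 ± 0.49 (SE), BAT over plasma (edgeR, adjusted p = 0.00127). Of 234 miRNAs tested, 42.3% passed in this comparison and 20.1% were lower in BAT. With library size alone the value was -0.17 (edgeR, adjusted p = 0.747), and the median of all tested miRNAs moved from 1.21 by 2.63 on the log2 scale. Relative to that median miR-34a-5p was at -4.02 with TMM and -4.00 with library size alone. Scaling shifts all miRNAs by about the same amount, so these values had to be close and do not test the source difference.

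Among Exe libraries the shares were 0.563% ± 0.021 of BAT reads (SD, n = 3) and 0.198% ± 0.125 of plasma reads (SD, n = 2), with every BAT library above both plasma libraries. On the TMM scale it averaged 3413 ± 338 CPM in Exe BAT and 3373 ± 2499 CPM in Exe plasma. The log2 fold change was 0.02 ± 0.49 (SE), with a 95% interval of -1.06 to 1.09 (edgeR, adjusted p = 0.977), where 66.7% of 234 miRNAs passed. Upper-quartile factors gave 1.37 (edgeR, adjusted p = 0.0121), library size alone 1.52 (edgeR, adjusted p = 0.0193), and leaving out Exe plasma replicate 1 gave 1.13 (edgeR, adjusted p = 0.0301). The exercise difference in BAT less that in plasma was 2.83 ± 0.70 on the log2 scale (SE), given as a description beside 29.1% of 234 miRNAs that passed in that contrast.

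Within its own seed group miR-34a-5p was nearly the whole signal. With the family member miR-34c-5p, which was matched to no RefSeq sequence, counted beside the listed strands of seed GGCAGUG, miR-34a-5p made up at least 99.2% of their reads in every library. The other 3 strands together added at most 16 reads in a BAT library and 113 in a plasma library. MiR-449a-5p, known from ciliated epithelia, had 0, 3 and 1 reads in Exe BAT, against 9, 6 and 4 in Sed BAT, too few to be tested. In plasma it had 8 and 6 reads in Exe, against 37 and 105 in Sed, a log2 fold change of -3.71 ± 1.91 (SE; edgeR, adjusted p = 0.231). MiR-34b-5p had 0 reads in all Exe BAT libraries, against 2, 3 and 3 in Sed BAT, and it had 0 reads in plasma. With 3 reads allowed over the Exe BAT group it would be 3.07-fold lower in Exe. That figure leaves out the counting error of the 8 Sed reads and the spread between libraries, so it is no firm bound.

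The partner strand and the Mir34b and Mir34c strands were rare. MiR-34a-3p had 2 reads in Exe BAT replicate 3 and 0 in the other 9 libraries. MiR-34c-5p had 0, 0 and 2 reads in Exe BAT, against 5, 1 and 0 in Sed BAT, and 0 and 1 in Exe plasma, against 0 and 8 in Sed plasma. MiR-34b-3p and miR-34c-3p had at most 2 reads in any BAT library. In plasma miR-34c-3p had 216 and 534 reads in Exe, against 0 and 26 in Sed, a log2 fold change of 4.75 ± 2.62 (SE; edgeR, adjusted p = 0.267), which moved to 11.3 without Sed plasma replicate 2. MiR-34b-3p had 191 and 1 reads in Exe plasma, against 0 and 55 in Sed plasma, so 1 library in each group held nearly all of them. Its log2 fold change was 1.76 ± 3.01 (SE; edgeR, adjusted p = 0.694), and ran between -4.43 without Exe plasma replicate 1 and 9.29 without Sed plasma replicate 2.

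The lists of miRNAs below were chosen with earlier results of these data known. Their counts, medians and p-values are therefore a description and no independent test. Of 14 miRNAs known to restrain brown or beige fat in mice, 11 were tested in BAT besides miR-34a-5p. Of these 0 rose and 1 fell, beside 9.55% that rose and 13.1% that fell among all tested miRNAs. Their fold changes lay above 0 for 6 and below 0 for 5, with a median log2 value of 0.22, beside -0.06 for all tested. The 1 that fell was let-7i-5p, with 525, 940 and 866 reads in Exe BAT, against 1909, 1512 and 988 in Sed BAT (-1.01 ± 0.23 SE; edgeR, adjusted p = 0.0151). The Exe and Sed reads of let-7i-5p did not overlap, but its call ended without Exe BAT replicate 1 (edgeR, adjusted p = 0.0788), without Exe BAT replicate 3 (0.0881) and with RPM totals (0.126). Next by p were miR-93-5p at 0.55 ± 0.25 (SE; edgeR, adjusted p = 0.132) and miR-155-5p, an inflammatory miRNA that targets C/EBPβ, at 0.95 ± 0.45 (SE; edgeR, adjusted p = 0.149), which passed without Sed BAT replicate 2 (1.36; edgeR, adjusted p = 0.0391).

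In plasma 7 restraining miRNAs were tested besides miR-34a-5p, and the median was 0.39, beside 0.32 for all tested. Of the 7, 0 passed with edgeR (1 at an unadjusted p under 0.05) or limma-voom and 1 with DESeq2. Of all 182 tested in plasma, 33.0% had an unadjusted p under 0.05, limma-voom called 35 and DESeq2 57. MiR-27b-3p, which lowers Prdm16 in mouse adipocytes, had 1797 and 2942 reads in Exe plasma, against 12036 and 15574 in Sed plasma (-3.15 ± 0.80 SE; edgeR, adjusted p = 0.0899). It fell past the threshold with DESeq2 (adjusted p = 0.007), and with edgeR under upper-quartile factors (0.0371), no filter (0.0377), a minimum of 50 mean counts (0.0379) or either Sed plasma library left out (0.0112 and 0.000398). In BAT the same miRNA was at 0.45 ± 0.31 (SE; edgeR, adjusted p = 0.302). Let-7i-5p in plasma was at 0.39 ± 0.57 (SE; edgeR, adjusted p = 0.649). MiR-199a-3p, whose reads cannot be told from those of miR-199b-3p, was at -2.13 in plasma (edgeR, adjusted p = 0.276) and at -1.38 without Exe plasma replicate 1. MiR-125b-5p was at 2.02 in plasma (edgeR, adjusted p = 0.464), at 0.92 without Exe plasma replicate 1, 3.33 without Exe plasma replicate 2 and 3.05 without Sed plasma replicate 2.

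Of 13 miRNAs tied to p53, by transcription or by processing, 7 were tested in BAT besides miR-34a-5p, 0 rose and 0 fell with edgeR, and the median was 0.18, beside -0.06 for all tested. MiR-15a-5p was at -0.51 ± 0.21 (SE; edgeR, adjusted p = 0.106), miR-16-5p at -0.39 and miR-107-3p at 0.47 (edgeR, adjusted p = 0.281 and 0.331). With 1 library left out miR-15a-5p was at -0.34 without Exe BAT replicate 3, miR-16-5p at -0.22 without Exe BAT replicate 1 and -0.20 without Sed BAT replicate 2, and miR-107-3p at 0.28, 0.75 and 0.77 without Exe BAT replicate 2, Exe BAT replicate 3 and Sed BAT replicate 2. In plasma 8 were tested besides miR-34a-5p, and 0 passed with edgeR, while 2 had an unadjusted p under 0.05. DESeq2 called 2 (miR-194-5p and miR-200c-3p) and limma-voom 1 (miR-200c-3p). Of all 182 tested in plasma, 33.0% had an unadjusted p under 0.05, DESeq2 called 57 and limma-voom 35. Of the 8, 2 lay above 0 and 6 below, with a median of -0.87, beside 0.32 for all tested. MiR-200c-3p had 17 and 11 reads in Exe plasma, against 660 and 1209 in Sed plasma, and miR-194-5p 6 and 1 reads in Exe plasma, against 168 and 255 in Sed plasma (edgeR, adjusted p = 0.0915 and 0.12). MiR-145a-5p was at 3.01 (edgeR, adjusted p = 0.417), at -0.65 without Exe plasma replicate 1 and at 4.59 without Exe plasma replicate 2.

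MiRNAs known to promote brown or beige fat were set beside the restraining ones, again as a description. Of 12 tested in BAT, 3 rose and 1 fell, beside 9.55% that rose and 13.1% that fell among all tested, and the median log2 fold change was 0.48, beside -0.06. MiR-193b-3p, which supports brown adipocyte differentiation in mice, had 2793, 3246 and 3312 reads in Exe BAT, against 996, 1696 and 1133 in Sed BAT (1.17 ± 0.29 SE; edgeR, adjusted p = 0.0167). MiR-328-3p was at 1.26 ± 0.24 (SE; edgeR, adjusted p = 0.0107), and miR-455-3p, at 9 to 17 reads in Exe BAT and 2 to 6 in Sed BAT, was at 1.57 ± 0.44 (SE; edgeR, adjusted p = 0.0306). MiR-32-5p fell, at -1.35 ± 0.36 (SE; edgeR, adjusted p = 0.0243). The miR-328-3p call held under every alternative run, whereas those of miR-193b-3p, miR-455-3p and miR-32-5p ended without Exe BAT replicate 1 (edgeR, adjusted p = 0.0771, 0.0631 and 0.0821) and without Sed BAT replicate 3 (0.0582, 0.0586 and 0.081). The first of them also ended without Exe BAT replicate 3 and with library size alone, miR-455-3p without Sed BAT replicate 2, with DESeq2 and without a filter, and miR-32-5p without Exe BAT replicate 2 or 3. In plasma 9 were tested, with a median of -2.90, beside 0.32 for all tested. There 0 passed with edgeR, and 5 had an unadjusted p under 0.05. DESeq2 called 4 (miR-328-3p higher in Exe, and miR-196a-5p, miR-203-3p and miR-30b-5p lower). Limma-voom called 3 (miR-193b-3p, miR-196a-5p and miR-203-3p, all lower). Of all 182 tested in plasma, 33.0% had an unadjusted p under 0.05, DESeq2 called 57 and limma-voom 35. MiR-193b-3p had 0 reads in both Exe plasma libraries, against 13 and 37 in Sed plasma, and miR-455-3p is not listed.

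By profile over the 6 BAT libraries, the miRNAs most like miR-34a-5p were miR-486b-3p, let-7i-5p, miR-142a-3p, let-7a-5p and miR-381-3p. Their root mean square difference from it in centred log2 CPM was 0.163 to 0.206, against a median of 0.648 over 198 miRNAs. Let-7a-5p, the most abundant of these, had 1441, 2106 and 2040 reads in Exe BAT, against 5067, 4209 and 2193 in Sed BAT, and 84008 and 166861 in Exe plasma, against 7811 and 26366 in Sed plasma. So it was lower than in Sed in BAT, like miR-34a-5p, and higher than in Sed in plasma. Over all 10 libraries the most alike were miR-27b-3p, miR-200a-3p, miR-99a-5p, miR-21a-5p and miR-99b-5p, at 0.772 to 1.02 against a median of 2.47 over 233 miRNAs, and none of these was among the 5 of BAT.

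Marker miRNAs of other cell types differed between some of the same groups, and their part in the miR-34a-5p values was not tested. In plasma 4 red cell markers summed to 12.5% to 13.99% of Exe reads and 52.8% to 70.0% of Sed reads, and 5 leukocyte markers to 2.15% to 2.44% of Exe reads and 0.159% to 0.211% of Sed reads. The 2 neural markers summed to at most 0.000165% of Exe plasma reads and to 0.0112% to 0.0513% of Sed plasma reads. Of 5 muscle markers miR-133b-3p is not listed for plasma. Of 23 marker miRNAs tested in plasma 0 passed with edgeR, 9 had an unadjusted p under 0.05, and DESeq2 and limma-voom called 8 each. Over all 182 tested in plasma these counts were 0, 60, 57 and 35. Both DESeq2 and limma-voom called miR-451a, miR-200c-3p, miR-205-5p, miR-122-3p, miR-9-5p and miR-124-3p lower in Exe, and the leukocyte marker miR-342-3p higher. DESeq2 alone called the muscle marker miR-206-3p higher, and limma-voom alone miR-193b-3p lower. The 6 epithelial markers overlapped in share, at 0.0645% to 0.206% of Exe plasma reads and 0.106% to 0.124% of Sed plasma reads. In BAT 1 of 5 muscle markers fell, miR-1a-3p at -1.47, and the list summed to 2.51% to 3.56% of Exe reads and 2.98% to 5.59% of Sed reads. Of 5 leukocyte markers in BAT miR-142a-3p fell, at -1.19, while the list summed to 0.783% to 1.16% of Exe reads and 0.722% to 0.915% of Sed reads. The liver miRNA miR-122-5p rose, with 88, 30 and 12 reads in Exe BAT, against 13, 5 and 4 in Sed BAT (edgeR, adjusted p = 0.0493), groups that overlap, and its log2 fold change of 2.62 was 1.37 and not past the threshold without Exe BAT replicate 1. The call of miR-122-5p also ended without any 1 of the Sed BAT libraries, with limma-voom (adjusted p = 0.165), without a filter and without the 3 most abundant miRNAs. Those of miR-1a-3p and miR-142a-3p ended without Exe BAT replicate 1 or 3, and that of miR-142a-3p also without Exe BAT replicate 2 and with RPM totals. The 4 brown fat markers summed to 22.9% to 29.8% of Exe BAT reads and 6.53% to 22.8% of Sed BAT reads, and miR-193b-3p and miR-455-3p of them rose. In plasma, where miR-455-3p is not listed, they summed to 0.0265% to 0.149% of Exe reads and 0.157% to 0.5% of Sed reads. Nearly all of this was miR-378a-3p, at 0.1487% and 0.0265% of Exe plasma reads, against 0.499% and 0.1525% in Sed plasma. The summed ranges were close but did not overlap, with Exe lower. Of the single miRNAs tested in plasma, 30.8% had Exe libraries all below Sed libraries. The 3 tested red cell, 2 tested endothelial and 0 tested epithelial and neural markers gave no call in BAT.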

How the data were processed

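Small RNA from vesicles was sequenced with Illumina libraries after Trizol extraction, per the labels' protocols. The authors deposited 1 table per source with read counts per mature miRNA; Bowtie 0.12.2 and the builds mm8 and mm9 are named, with no role, in the submitters' processing notes, while no source used here gives the trimming, counting or filters. RPM values deposited for BAT were found to equal the read count over 1 total per library (18924896 to 21160749 reads) within 0.0021. The second plasma values were deposited as whole-number counts of unstated making and used as an alternative.

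Counts were analysed with R 4.3.3 and edgeR 4.0.16: TMM scaling, filterByExpr, quasi-likelihood test with robust dispersions and Benjamini-Hochberg adjustment over all tested miRNAs, threshold 0.05, separately per source, and in a joint fit of the 4 groups for BAT against plasma. An SE is the log2 fold change over the square root of F. CPM are scaled counts. DESeq2 1.42.0 and limma 3.58.1 (voom), other scalings, filters and each library left out were alternatives. The scripts were tested on simulated data. Intervals are exact binomial; like the floor of 3 reads they hold for counting error only, and PCR copies are not independent. No label calls the replicates separate animals: a p-value here reflects spread among libraries, which may be technical. Same-numbered libraries did not deviate together (correlations of -0.12 to 0.00425 in BAT and -0.0755 in plasma), so no block was used. No replicate pair had identical counts.

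MiR-34a-5p and the lists were chosen with earlier results of these data known. Named miRNAs are miR-34a, the listed miR-34b, miR-34c and miR-449 strands, members of the restraint, p53 and promoting lists past the threshold or among the 4 of smallest p, marker miRNAs past the threshold or most abundant, the 5 of most like profile and the 3 next in abundance on each side. Sequences are from RefSeq (GRCm38.p6) and GENCODE M21.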

Additional observations from a re-analysis of the deposited data

Results flagged for a closer look

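For 6 of 18 miRNAs named from the lists and relatives, the difference of exercise effects, BAT minus plasma, passed the threshold in the joint edgeR fit. Of all 234 miRNAs in that fit 29.1% passed, and source and table cannot be told apart in it. All 6 had been named for a small p in the plasma comparison, which is part of this contrast. Their count and p-values here are therefore a description and no independent test. MiR-27b-3p, a restraining miRNA, differed by 4.02 ± 0.64 on the log2 scale (SE; edgeR, adjusted p = 0.00264), where the separate fits per source gave 0.45 in BAT and -3.15 in plasma. MiR-193b-3p differed by 8.65, a fitted value that depends on the prior count because both Exe plasma libraries had 0 reads. MiR-203-3p differed by 8.64, with 0 and 2 reads in Exe plasma, against 97 and 268 in Sed plasma. MiR-194-5p differed by 6.73, miR-200c-3p by 6.02 and miR-30b-5p by 6.27, each with lower Exe than Sed reads in plasma. The miR-30b-5p call ended without Sed BAT replicate 1 (edgeR, adjusted p = 0.0608), without Sed plasma replicate 2 (0.0629) and with the replicate block (0.0698), and its value ran between 5.04 and 10.55 with 1 library left out, highest without Exe plasma replicate 1.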

How the results depend on the processing

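MiR-34a-5p in Exe over Sed was negative under every alternative run. In BAT it moved to -0.90 with upper-quartile factors, -1.19 with library size alone, -0.85 with RPM totals and -0.91 where 50 mean counts were required, and lay between -1.06 and -0.96 with 1 library left out. In plasma it was -4.50 with upper-quartile factors and -2.86 with library size alone, and -3.99 to -2.67 with 1 library left out. BAT over plasma lost its call in Sed with library size alone (-0.17); in Exe it gained one with upper-quartile factors (1.37), library size alone (1.52) and with 50 mean counts required (1.29), turned to -0.079 without the 3 most abundant miRNAs, and lay at -0.23 to 1.13 with 1 library left out (-0.10 without Sed BAT replicate 2). The count of calls in BAT, 45, was 21 where 50 mean counts were required and 16 to 56 with 1 library left out (16, 22 and 28 without Exe BAT replicates 3, 1 and 2). The count in plasma, 0, was 57 with DESeq2, 35 with limma-voom, 29 with 50 mean counts required, 17 without a filter, 11 with second values, 10 with library size alone, 4 with upper-quartile factors, 1 without the 3 most abundant miRNAs and 3 to 27 with 1 library left out. Where 1 plasma library is left, it is assumed to vary like the others. With 1 library left out, miR-145a-5p in plasma lay at -0.65 to 4.59 and miR-34b-3p at -4.43 to 9.29, both lowest without Exe plasma replicate 1. The replicate number as a block gave 25 calls in BAT and 7 in plasma, with miR-34a-5p at -1.05 and -3.68. The block also ended the BAT calls of miR-193b-3p, miR-455-3p, miR-32-5p and miR-142a-3p (edgeR, adjusted p = 0.0589, 0.0833, 0.0589 and 0.0532). The numbers were not found to pair the libraries, and no BAT library correlated best with the one of its own number. The cause of these shifts was not tested. Strands under 10 reads, such as miR-34b-5p in BAT, are limited by depth.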
